A study of Mus musculus with 6 samples.

Results

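In cultured neonatal mouse cardiomyocytes, 433 of the 41069 piRNA probes of a mouse piRNA microarray were lower on every array of cells given high glucose with palmitate than on every array of untreated cells. They were chosen from the readout itself. A member had to be well above background, by the scanner software's flag, on all 3 untreated arrays. Its lowest untreated value had to exceed its highest treated value by 0.5 or more, and its value had to lie below 5 on at least 1 array. Values are log2 processed intensities after the 75th percentile of the array's piRNA probes was subtracted, so that 0 is the 75th percentile and a difference of 1 is a doubling. The distance between the lowest untreated and the highest treated value is called the gap below. Because the treatment contrast chose the members, their differences between the groups are given as a description and no test is drawn from them.

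PIWI-interacting RNAs (piRNAs) are short RNAs bound by PIWI proteins, a branch of the Argonaute family. They guide these proteins to complementary transcripts and are best known for silencing transposons in the germ line, where many arise from long precursor transcripts. Signals at piRNA sequences have also been described in somatic tissues, the heart included, and their role there is less well understood. Each member is called by the probe ID of the array design, because piRNA names, sequences and genome positions were not used here.

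The untreated group had 3 samples, titled as not treated, and the treated group had 3 samples exposed to high glucose (40 mM) with palmitate, a saturated fatty acid. Palmitate is labelled as 300 mM, where the unit may be a slip. The combination is a common culture model of the glucose and lipid excess of diabetes, and neonatal cells differ from the adult heart's. Neither the exposure time nor the glucose of the untreated medium is given in the sources used here, nor whether replicates came from separate cultures, so any spread between samples may be technical. Total RNA was labelled as amplified cRNA with no size selection named in the protocols, so a short piRNA and a longer RNA with the same sequence cannot be told apart. In such bulk RNA, fewer cells of a type and less RNA per cell cannot be told apart either. The array design names no messenger RNA marker, so the labelled cell type was not checked.

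Per the scan record, the 3 untreated arrays and treated replicate 1 shared slide 1, and treated replicates 2 and 3 lay on slide 2. The 75th percentile of processed intensity was 138 to 172 on the untreated against 215 to 299.8 on the treated arrays. Over the 6 arrays, 77.9% to 92.6% of the probes were well above background. Slide 2 carried no untreated array, so slide and treatment cannot be told apart for treated replicates 2 and 3.

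The members were a small share of the probes. The rule took 1.05% of all piRNA probes and 1.34% of the 32243 that could meet it, those detected in every untreated sample and below 5 on at least 1 array. With no margin, the groups did not overlap with treated arrays lower for 4103 eligible probes, or 12.7%. The mirrored rule for probes higher on every treated array took 308 of 30237 eligible probes, or 1.02%.

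How many probes met the rule depended on treated replicate 1, the treated array on the untreated slide. Taken alone against the 3 untreated arrays, it met the margin at 1710 of the 32243 eligible probes, or 5.3%. Treated replicates 2 and 3, on slide 2, met it together at 5985, or 18.6%. These counts share the untreated arrays. Leaving out an array loosens the rule, so it can only lengthen the list. The list held 1468 probes without untreated replicate 1, 967 without untreated replicate 2, 710 without untreated replicate 3 and 5985 without treated replicate 1. It held 473 and 499 without treated replicates 2 and 3.

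In limma's test across 33569 probes, 0 had an adjusted p under 0.05, so that 0 of the 433 members did either (0% called lower). The smallest adjusted p was 0.349, and 4504 probes had an unadjusted p under 0.05. At that unadjusted threshold 9.69% of all tested probes were lower in treated cells, and 430 of the members were among them, as the rule makes likely. Without treated replicate 1 the test called 12422 of 36621 probes, 6509 of them lower (17.8%). Of the members, which were chosen to be low on these same arrays, 419 were called. Both treated arrays were then on slide 2 and all untreated ones on slide 1.

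The probe that stood farthest apart was ASPI198606P. Untreated replicates 1, 2 and 3 read 4.06, 3.49 and 4.72, against 0.97, 0.29 and 0.12 for treated replicates 1, 2 and 3. All 6 readings were above the 75th percentile, the treated ones much closer to it. Its processed intensities were 2405, 1934 and 3647 on the untreated against 422, 366 and 280.1 on the treated arrays, so the groups were also apart before any scaling. Untreated cells averaged 4.09 ± 0.62 (SD, n = 3), and treated cells 0.46 ± 0.45 (SD, n = 3), a 12.4-fold lower mean. The gap of 2.52 was the largest of all members and 12.2 times the software's own error estimate for the facing pair of spots, that is, the lowest untreated and the highest treated one. On slide 1 alone, treated replicate 1 was 3.12 below the untreated mean.

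Past this probe the gaps were small. The median gap was 0.66, 43 members had a gap of 1 or more, 4 of 1.5 or more, and 1 of 2 or more. The median difference between the group means was -1.47 over the members, beside -0.13 over the eligible probes. It ranged from -4.16 to -0.58. These values include 123 members that were well above background on no treated array and have only a bound. With those at the bound described below, the median was -1.19 over the members.

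The members fell into a bright and a dim set, split here at an untreated mean of 0 after the values were seen. The bright set held 151 members and the dim set 282. Members were common at both ends of the brightness scale and rare in between. They made up 2.55% of the eligible probes with an untreated mean below -1.5, 0.351% of those from -0.5 to 0, and 9.06% of those from 4 to 5. In that last range 31 of 342 eligible probes were members.

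The bright members had median values of 3.07, 2.77 and 3.60 on untreated replicates 1, 2 and 3, against 2.08, 1.14 and 1.52 on their treated counterparts. The treated medians were therefore lower on every array, and more so on slide 2. Their median difference was -1.65, against -0.41 over the 9989 eligible probes of that brightness. All but 2 of the 151 were well above background on all 3 treated arrays. The gap exceeded 2 of the software's errors for the facing spots in 149 of them.

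Among the bright members, ASPI219166P and ASPI205250P had the next largest gaps after ASPI198606P. ASPI219166P read 4.12, 4.13 and 4.85 on the untreated against 2.62, 2.08 and 2.75 on the treated arrays, a 3.69-fold lower mean with a gap of 1.37. Here the slide 1 treated array lay between the other two, so the treated arrays were not ordered by slide. ASPI205250P read 4.32, 3.89 and 4.28 on the untreated against 2.58, 1.19 and 1.79 on the treated arrays, a 4.96-fold lower mean. Its treated replicate 1 lay above both slide 2 arrays and still 1.31 below the lowest untreated array.

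The brightest member was ASPI351778P, with 8.41, 8.28 and 7.14 on the untreated against 6.62, 6.46 and 4.97 on the treated arrays. Its processed intensities were 49296, 53736 and 19530.2, against 21139.9, 26374 and 8079.6 in treated cells. Unscaled, untreated replicate 3 lay below treated replicates 1 and 2, so the groups overlapped. The next 4 by brightness were ASPI010378P, ASPI322214P, ASPI367712P and ASPI192847P. ASPI010378P read 6.51, 6.10 and 7.06 on the untreated against 5.38, 4.10 and 4.70 on the treated arrays. ASPI322214P read 6.25, 5.93 and 6.92 on the untreated against 5.06, 3.36 and 3.82 on the treated arrays. In both, treated replicate 1 was the closest to the untreated arrays and untreated replicate 3 the highest of all. The same order held for ASPI367712P, at 5.45, 5.73 and 7.11 against 4.92, 3.20 and 3.70, and for ASPI192847P, at 5.21, 5.44 and 6.58 against 4.67, 2.88 and 3.69. The mean was 3.56- to 4.89-fold lower for these 5 probes.

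Bright probes in general were lower on the slide 2 arrays, and that moved with the bright members. Over the eligible probes with an untreated mean of 4 to 5, the median difference of treated replicates 2 and 3 from the untreated mean was -1.41, while that of treated replicate 1 was 0.37. The 31 members in that range stood at -2.23 on slide 2 and at -1.25 on treated replicate 1. From 0 to 1 the eligible medians were -0.45 on slide 2 and 0.03 on treated replicate 1, and the 30 members stood at -1.58 and -1.05. The rule by itself places every member below the untreated arrays on treated replicate 1. The part of this trend in the member list was not tested beyond the rescalings given below.

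The dim members sat near the detection limit. Their medians were -1.51, -1.58 and -1.34 on the untreated against -2.46, -2.84 and -2.97 on the treated arrays, the latter close to the lowest level flagged as well above background, -2.40 to -2.95 on those arrays. Median processed intensity was 50.9, 57.7 and 54.8 in untreated cells, against 39.2, 41.8 and 32.9 in treated cells. The median difference was -1.36 over the dim members (-1.02 with the undetected ones at their bound) and 0.01 over the 22254 eligible probes of that brightness. Of the 282, 80 were well above background on all treated arrays and 123 on none. The lowest processed intensity so flagged was 21.5 to 27.5 on the untreated arrays, but 36.5 to 40.8 on the treated arrays. A spot of unchanged intensity between these levels could thus be detected on the untreated arrays only. With the bright members, 229 of the 433 were detected on all treated arrays, beside 90.3% of the eligible probes.

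The software's error estimate was larger for the dim members. It was 25.1%, 22.4% and 26.9% of the processed intensity, as a median, on treated replicates 1, 2 and 3, against 10.1% on each for the bright members. The gap was at most 2 of these errors for 201 of the 282 dim members, and for 2 of the 151 bright ones. Because the margin sets the smallest gap, these counts mostly follow the error estimates and are a description only. For 9 dim members it did not exceed 1 error. The signal was not significantly above background for 1, 29 and 41 dim members on treated replicates 1, 2 and 3, where the processed value is a stand-in set by the software.

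Of the 8 largest gaps, 5 belonged to such dim members. ASPI295375P read -1.96, -2.79 and -2.30 on the untreated against -4.47, -5.06 and -4.85 on the treated arrays. In processed intensity this was 37.1, 24.9 and 28.0 against 9.75, 8.99 and 8.93, and none of the treated readings was significantly above background. Its gap of 1.67 was 1.13 times the error of the facing spots. ASPI354766P read -1.89, -2.03 and -1.89 against -3.65, -4.57 and -4.98, with untreated arrays that nearly coincided. ASPI244343P read -2.31, -2.28 and -2.11 against -3.88, -5.22 and -4.98. ASPI323177P had intensities of 36.2, 28.8 and 31.3 against 13.6, 8.91 and 8.67, the latter also close to the floor. All of these were well above background on no treated array, so the size of the difference has only a bound.

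For the 123 members well above background on no treated array, the bound compared the untreated mean with an adjusted treated mean. Readings below an array's lowest detected signal were raised to it, and undetected readings above that signal were kept. The bound is therefore approximate and not a strict minimum. Probes detected on no treated array made up 0.84% of the eligible probes, 271 in all. On the scaled values, the median bound over the 123 was 1.80-fold higher in untreated cells, and it was at least 2-fold for 44 of them. These bounds depend on the scaling. Without scaling between arrays, the median log2 difference over all piRNA probes lay 0.76 higher, so the bounds would be smaller. The bound was 4.44-fold for ASPI313837P, which read 1.78, -1.66 and -1.60 on the untreated against -2.69, -2.71 and -2.96 on the treated arrays. Its undetected reading on treated replicate 2 lay above that array's lowest detected signal, -2.95, and was kept. Untreated replicate 1 alone carried most of that mean. ASPI271790P, also the fifth by gap, had a bound of 3.95-fold and likewise 1 high untreated array, at 0.93 against -1.73 and -1.42. It read -3.15, -3.66 and -4.94 on the treated arrays. ASPI058641P had a bound of 3.38-fold, with -1.38, -1.28 and -0.19 against -2.36, -3.10 and -2.90. ASPI181481P and ASPI314018P had bounds of 3.16- and 2.75-fold. In ASPI181481P, too, untreated replicate 1 was the highest, at 0.09, beside -1.87 and -1.41.

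The treated arrays differed among themselves within a member about as much as in other probes, with a median SD of 0.45 over the members and 0.47 over the eligible probes. Treated replicate 1 was the highest treated array for 355 members (82.0%) and so set the gap in most of them, against 49.4% of the eligible probes. Among the bright probes the shares were 85.4% of members and 80.2% of eligible probes, and among the dim ones 80.1% and 35.6%. It was the lowest treated array for 25. Since the rule uses the highest treated array, this order is partly set by the choice of members. For 395 members the mean of the slide 2 arrays lay below treated replicate 1. The median difference from the untreated mean was -0.996 on treated replicate 1 and -1.69 for treated replicates 2 and 3.

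Where treated replicate 1 was the lowest, the slide 2 arrays lay nearer to the untreated level. ASPI375650P read -1.48, -2.38 and -2.43 on the untreated against -4.53, -3.34 and -3.15 on the treated arrays. ASPI180327P read -0.27, -2.22 and -1.56 against -3.94, -3.16 and -3.18. ASPI384232P read -1.97, -1.94 and -1.71 against -3.35, -2.97 and -2.96, with both groups narrow. ASPI059623P read -0.82, -1.37 and -1.66 against -2.94, -2.21 and -2.19. The first 3 of these were well above background on no treated array, and ASPI059623P on treated replicates 2 and 3 but not on replicate 1.

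In 54 members, 46 of them dim and 8 bright, the 3 treated arrays lay within 0.25 of each other, across both slides. The share of eligible probes that were as even is not given here. The tightest was ASPI192910P, at -0.46, -0.47 and -0.46 in treated against 0.05, 0.08 and 0.56 in untreated cells, a 1.62-fold lower mean. Without scaling its mean difference turned to 0.06 in the other direction, from intensities of 149.6, 182 and 204 against 156, 216 and 187. ASPI327233P was also even, at -2.10, -2.09 and -2.11 against -1.26, -1.41 and -1.27, and ASPI201971P at -2.37, -2.37 and -2.32 against -1.64, -1.48 and -1.36. ASPI116052P read -2.92, -2.93 and -2.93 on the treated arrays against -2.10, -2.07 and -1.85, and was well above background on none of the treated ones. ASPI401711P read -2.61, -2.62 and -2.61 against -1.75, -1.44 and -0.95. In all 5 the unscaled groups overlapped.

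Narrow untreated values with a gap of 1 or more were found in ASPI354766P, ASPI178346P, ASPI244343P, ASPI073068P and ASPI402585P. ASPI178346P read -2.13, -2.06 and -1.95 on the untreated against -3.22, -5.11 and -5.01 on the treated arrays. ASPI073068P was narrow in both groups, with intensities of 29.9, 36.3 and 34.5 against 19.4, 26.0 and 21.1. ASPI402585P read -1.33, -1.08 and -1.37 against -2.41, -2.79 and -2.87, with only treated replicate 2 well above background. The 5 were all dim, with untreated intensities between 29.2 and 81.3.

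The untreated spread of the members was similar in size to that of the other probes, with a median range over the 3 arrays of 0.59 against 0.56 over the eligible probes. The order of the arrays differed among bright probes. Untreated replicate 3 was the highest untreated array for 122 of 151 bright members, against 3255 of 9989 eligible bright probes. Untreated replicate 2 was the lowest for 82.1% and 24.8%. Among dim probes, untreated replicate 3 was the highest for 169 of 282 members and 12491 of 22254 eligible probes. The range exceeded 2 in 9 members (2.08%, against 4.18% of the eligible probes). Untreated replicate 3 was the high array in 5 of these and untreated replicate 1 in 4. The gaps of these 9 ran from 0.51 to 1.42. ASPI089305P read 3.71, 2.33 and 8.53 on the untreated against 1.80, 0.91 and 0.86 on the treated arrays. Its mean difference of -3.67 beside a gap of 0.53 came with the 1 high array. ASPI301676P read 0.44, -0.43 and 6.05 against -1.10, -1.40 and -1.15, and ASPI079673P read -1.15, -1.72 and 3.93 against -3.22, -2.70 and -2.24. ASPI331083P had the lowest mean difference of all members, -4.16, from 4.89, -1.52 and -1.43 against -2.14, -3.45 and -4.96. Its high spot, on untreated replicate 1, carried an outlier flag and was left out of the limma fit. It was the only member with a flagged spot. These probes but ASPI079673P were singled out after their values were seen.

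At the edge of the rule, ASPI382251P, ASPI130397P and ASPI084404P were just inside, the last with a gap of 0.501 and the other two below that. ASPI130397P read -0.25, -0.24 and -0.04 on the untreated against -0.77, -1.27 and -0.75 on the treated arrays, and its unscaled mean difference was 0.0012. ASPI159437P, ASPI361074P and ASPI243489P were just outside, with gaps of 0.499, 0.499 and 0.498. ASPI361074P read -0.81, -0.54 and 0.08 against -1.30, -2.28 and -2.03, a pattern like that of many members. The upper limit kept out 13 probes with values of 5 or more on all arrays and gaps of 0.50 to 0.71.

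The members were spread unevenly over the array surface. With the rows cut into 10 parts, the part with most members held 73 (16.9%) and the part with fewest 20 (4.62%), where each held 9.12% to 10.5% of the eligible probes. For the dim members the fullest row part held 59 (20.9%), and for the bright members 21 (13.9%). Over 5 column parts the members' shares were 26.1%, 24.7%, 19.6%, 12.7% and 16.9%. Local background did not stand apart at member spots: its median was 15.0 on each untreated array for members and eligible probes alike, 16.5 against 16.0 on treated replicate 1, and 13.0 against 13.0 on both slide 2 arrays. After centring each array within 50 position blocks, a setting chosen after seeing the data, 439 probes met the rule, 345 of them members. The groups did not overlap for any of the 433, which had been chosen for that on these same arrays.

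The scaling between arrays decided much of the list. Without scaling, the median difference over all piRNA probes was 0.62, a shift of 0.76 from the 75th percentile scaling, and that over the members was -0.71, or 1.33 below the median of all probes. By construction that distance was also 1.33 with the 75th percentile scaling. Unscaled, 275 of the 433 members were lower on every treated array, and 45 by the margin of 0.5, of which 24 were bright. Of all 32243 eligible probes, 45 met the margin unscaled and 171 after quantile normalization. The members were chosen for such separation on these same arrays. The share of eligible probes whose groups lay apart is given above for the 75th percentile scaling only. Quantile normalization, which makes the distributions of the arrays equal, kept 151 members past the margin, 47 bright and 104 dim. It left the groups apart for 82 of the 151 bright and 275 of the 282 dim members. The authors' deposited table of log2 values, which is close to quantile normalization, gave the same counts for members. Normexp background correction, which lifts low signals by an offset, kept 95 bright members but only 6 dim ones past the margin, although no member's groups overlapped.

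Past the margin in all 8 other settings of scaling, background correction and position were 7 members, 6 of them bright, and 16 members passed in none. As normexp kept only 6 dim members past the margin, few dim members could pass in all 8. With normexp and position blocks set aside, 18 members passed in all scalings, 6 bright and 12 dim. The set of 7 was chosen after seeing the values. It was led by ASPI198606P, described above. ASPI005389P read 0.98, 0.59 and 0.79 on the untreated against -0.64, -1.76 and -1.92 on the treated arrays, from intensities of 286, 260.3 and 239 against 138, 88.5 and 68.3. ASPI147728P read -0.22, -0.44 and 0.54 against -1.69, -1.85 and -1.63, a 3.21-fold lower mean that was even over both slides. ASPI327905P, the brightest of the 7 by untreated mean, read 4.99, 3.98 and 4.63 against 2.89, 1.26 and 1.52, a 6.25-fold lower mean. In it treated replicate 1 stood about midway between the untreated and the slide 2 arrays.

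ASPI306225P read 1.99, 1.29 and 2.65 on the untreated against 0.29, -0.73 and -0.11 on the treated arrays, a 4.48-fold lower mean. ASPI246746P read 1.18, 0.03 and 1.57 against -0.90, -1.95 and -1.87, a 5.66-fold lower mean. ASPI070984P read 1.19, 0.58 and 1.13 against -0.27, -1.46 and -1.49, a 4.12-fold lower mean. All 7 were well above background on all 6 arrays, and on slide 1 alone treated replicate 1 was 1.24 to 3.12 below their untreated means. Their gaps were 3.85 to 12.2 times the error of the facing spots. None passed limma's test after adjustment over all probes with all 6 arrays, where the smallest adjusted p of any probe was 0.349.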

How the data were processed

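Cy3-labelled cRNA from 6 samples was hybridised to 1-colour Agilent arrays, 1 per sample. The authors deposited processed, median and local background intensities from Agilent Feature Extraction, version 11.0.1.1 (per the submitters' processing notes). Per the file headers, processed intensity is background-subtracted and detrended but not scaled between arrays. The authors also deposited log2 values for 39394 probes, whose steps are not given in the sources used here. They differed by at most 0.10 from quantile normalization done here.

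Groups and replicate numbers came from the titles, and slides from the scan record. The rule was applied to all 41069 piRNA probes. The fit was limma 3.58.1 in R 4.3.3 with Benjamini-Hochberg adjustment, on probes detected throughout at least 1 group. Spots flagged as outliers were left out of the fit, and the filter was recomputed when an array was left out. The script was tested on simulated data. Precision is limited by the number of arrays, with a median standard error of 0.34 for a member's log2 difference.

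Same-numbered samples deviated together for replicates 1 and 3 (r = 0.35 and 0.46) but not 2 (-0.28), and were not taken as pairs. Probes were named by a fixed rule: largest gap, brightest, smallest treated or untreated range, treated replicate 1 lowest, largest bound, and nearest the margin. Members and lists were chosen with earlier results of these data known. Normexp used median spot intensities, with an offset of 50.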

Additional observations from a re-analysis of the deposited data

How the results depend on the processing

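The list held 433 probes. Among the values, it held 171 after quantile normalization, 169 in the authors' table, 156 after cyclic loess, 106 after normexp background correction and 45 unscaled. Among the criteria, it held 4103 with a margin of 0, 43 with a margin of 1, 796 with no detection filter and 229 with detection on all 6 arrays. Treated replicate 1 alone gave 1710, and leaving out 1 array gave 473 to 5985. Changes of the margin, detection and arrays move the count by their own construction; for the rescalings the cause was not tested. Median scaling, another base for the percentile, position blocks, no upper limit and no flagged spots kept the count within 1.5 times. The probes in the list changed more in some of these. Of the 433 members, 271 remained after median scaling, 365 with the other base and 345 after position blocks. All 433 remained with no upper limit, and 432 with no flagged spots.

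The median log2 difference over the members was -1.47. It was -1.12 after quantile normalization and in the authors' table (-1.12), -1.18 after cyclic loess, -0.82 after normexp and -0.71 unscaled, and leaving out 1 array gave -1.69 to -1.33. limma's count at an adjusted p under 0.05 was 0 under every scaling and filter run and with the replicate block. The smallest adjusted p of these limma fits ran from 0.0689 in the authors' table, 0.0694 after quantile normalization and 0.0821 unscaled to 0.429 with detection on all 6 arrays. It was 0.262 with the replicate block. With slide as a fixed block, the treatment difference rested on treated replicate 1 alone against the 3 untreated arrays. For ASPI198606P that difference was -3.12. Leaving out 1 array gave 0 to 12422, above 0 only without treated replicate 1. Of 541 alternative values for 33 named probes, 2 changed sign, both unscaled: ASPI130397P to 0.0012 and ASPI192910P to 0.062. Many of the 541 could not change sign. The rule puts every treated value below every untreated one, so leaving out arrays or blocking by slide keeps the sign. The replicate block and the detection filters leave the difference as it was. Only the settings of scaling and background correction could reverse it. Signal near background limits the dim members.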
